A study of Homo sapiens with 16 samples.

Results

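The 10 genes TCN1, ZFPM2, CDH7, SHISA2, CLEC2B, SYT14, EVC2, NNMT, SLC44A3 and DCC were followed through xenograft tumors and monolayer cultures of PC3, an established human prostate cancer line. They are 10 of the 20356 genes in the count table. They were chosen by their change between DDX4-null and control tumors, so tumor values are given below as a description with no test. By size of that change they ranked 1 (TCN1), 4 (SHISA2), 5 (ZFPM2), 9 (CLEC2B) and 15 (DCC) among the 127 genes called higher in DDX4-null tumors. Among the 143 genes called lower, EVC2, CDH7, SYT14, NNMT and SLC44A3 ranked 6, 7, 8, 12 and 13, so the 10 are large changes and not the 10 largest.

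The 4 groups, each of 4 libraries, were DDX4-null PC3 tumors, control PC3 tumors, DDX4-null PC3 monolayers and control PC3 monolayers. DDX4 is an RNA helicase best known from germ cells, and the comparison asks what its loss changes in a cancer line in culture and in a host. The sources used here do not give the way the null cells were made, the number of clones, the construct in the control cells or the host animal. Nor do the labels say whether a library is its own culture or animal, and the p-values measure only how far these libraries spread, in part perhaps for technical reasons.

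Library totals ran from 12204254 to 25443952 counts. DDX4 itself had 0 to 5 counts in every library of all 4 groups, so its RNA does not check the labels. The epithelial markers KRT8, KRT18, KRT19, EPCAM and CDH1 were read in all groups, with summed levels of 1180 to 1650 CPM (counts per 1000000) in DDX4-null tumors, 1210 to 1370 in control tumors, 1430 to 1740 in DDX4-null monolayers and 848 to 983 in control monolayers. The prostate protease KLK2 had 0 counts in all 16 libraries, and KLK3 had at most 3 counts over a group. Of 12 fibroblast markers all were read in both tumor groups. Their summed level was 11900 CPM in DDX4-null tumor 1, against 2230 to 2500 CPM in the other 3 DDX4-null tumors and 1990 to 2540 CPM in control tumors. The 13 leukocyte markers summed to 15.4 to 73.6 CPM in DDX4-null tumors, again highest in tumor 1, and to 15.8 to 33.8 CPM in control tumors. The part of these markers in the results was not tested. In such bulk libraries, fewer cells that express a gene and less RNA per cell cannot be told apart.

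The genes have no common pathway. TCN1 is a secreted vitamin B12 carrier, SLC44A3 belongs to the choline transporter-like family, and NNMT methylates nicotinamide with the methyl group of S-adenosylmethionine. CDH7 is a classical cadherin of cell adhesion, DCC is the receptor of the guidance cue netrin-1, and CLEC2B is a C-type lectin that the natural killer cell receptor KLRF1 (NKp80) binds. SHISA2 belongs to a family whose founding member, in Xenopus, holds immature frizzled and FGF receptors in the endoplasmic reticulum. EVC2 acts with EVC at the base of the primary cilium in Hedgehog signalling, ZFPM2 (FOG2) is a cofactor of GATA transcription factors, and SYT14 is a synaptotagmin, a family of C2-domain proteins of membrane traffic.

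Across settings the genes fell into different patterns. TCN1, ZFPM2 and CLEC2B were higher in DDX4-null than in control libraries both in tumors and in monolayers, and EVC2 and CDH7 were lower in both. SHISA2 was higher in DDX4-null tumors and lower in DDX4-null monolayers, while NNMT, SLC44A3 and SYT14 were lower in DDX4-null tumors and higher in DDX4-null monolayers. DCC was read mainly in tumors. In tumors, libraries of the 2 genotypes overlapped for none of the 10, which follows from how they were picked (12.6% of all 12942 genes tested did not overlap, 5.59% higher and 7.02% lower, and 2.09% were called, 0.981% higher and 1.1% lower). With library totals in place of TMM scaling, 97 genes were called higher and 168 lower. A gene is called here at an adjusted p under 0.05 in edgeR's quasi-likelihood test.

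**Figure D1:**
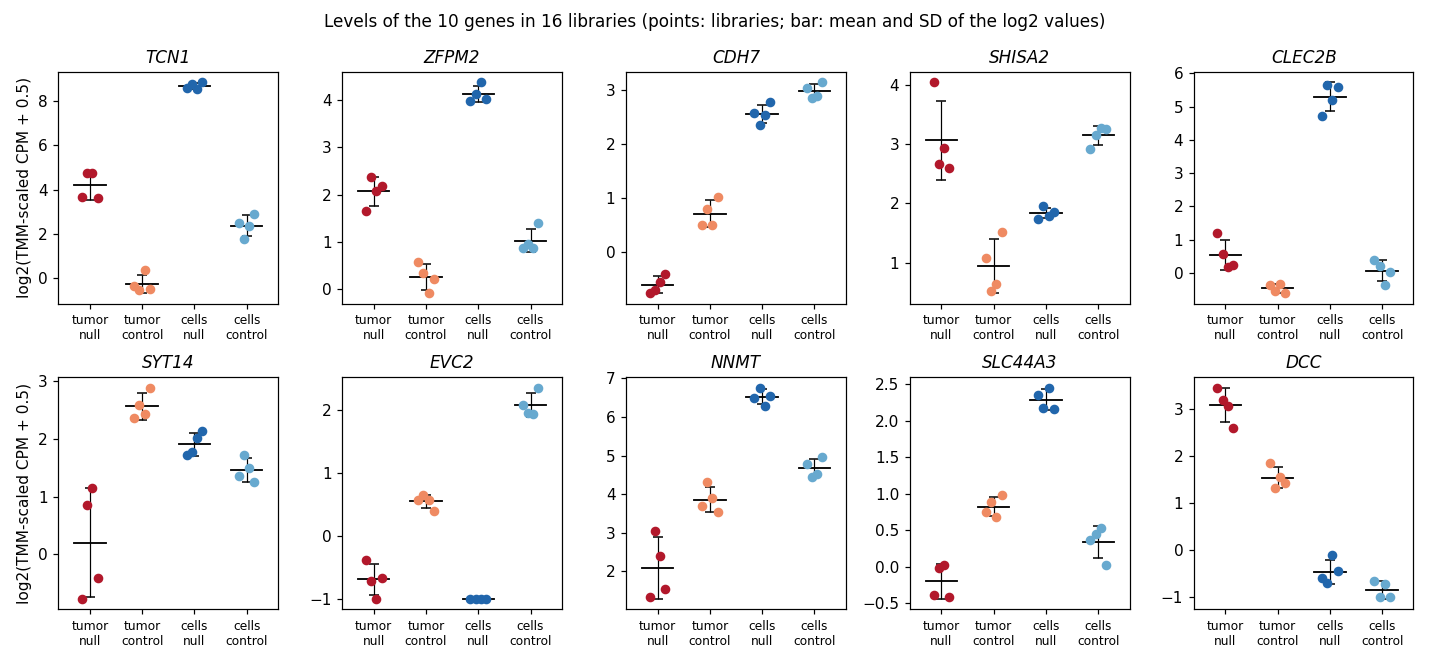
Levels of the 10 genes on the log2(TMM-scaled CPM + 0.5) scale (vertical axis) in DDX4-null tumors, control tumors, DDX4-null monolayers and control monolayers; points are libraries, bars the mean and SD of 4 libraries. TCN1 ran from 11.8 to 26.6 CPM in DDX4-null tumors and from 0.177 to 0.767 CPM in control tumors, and DCC was low in both monolayer groups.

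The monolayer libraries did not take part in the choice of genes by tumor change, although earlier results on several of these genes in monolayers were known. All 9 of the 10 genes that passed the filter on low counts were called there, 6 higher and 3 lower. This has to be read against a background in which 67.3% of 13006 genes tested were called in monolayers, 35.0% higher and 32.3% lower. DCC did not pass the filter. EVC2 passed it only through control monolayers, and CLEC2B and SLC44A3 only through DDX4-null monolayers, so their calls are descriptions. Genes that passed the monolayer filter only through their higher group are given below with no monolayer p-value. Between DDX4-null and control monolayers 5 genes were higher and 3 lower without overlap, while 59.4% of all genes tested did not overlap (31.0% higher and 28.5% lower), and SYT14 and DCC overlapped.

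RefSeq promoter windows (GRCh38.p14) were at hand for 7 of the 10 genes, and were read for the density of CpG, the dinucleotide at which mammalian DNA is methylated. Counts of the letters CG, which read the same on both strands, were taken over the 250 bases before the start, and 35116 windows of this kind had a median of 11. TCN1 had 1, a count as low in 14.7% of windows. EVC2 had 24, a count reached by 23.7% of windows, and SHISA2 had 26, reached by 19.6%. SYT14 had 39, reached by 2.65%. SLC44A3 had 35 and 6 in its 2 windows, CDH7 had 6 and 33, and DCC had 10. The letters TATAAA, searched on both strands, were in 1 SLC44A3 window and in 10.7% of all windows. Methylation was not measured, and the letters say nothing of it. The stretches before the first annotated exon are shown for the CpG-poor promoter of the gene with the largest rise, for the CpG-rich one of the gene read at 0 in DDX4-null monolayers, and for the gene read mainly in tumors, with each CG in capitals. They are chr11:59866576-59866737 on the minus strand for TCN1, chr4:5708568-5708809 on the minus strand for EVC2 and chr18:52339947-52340171 on the plus strand for DCC.
TCN1: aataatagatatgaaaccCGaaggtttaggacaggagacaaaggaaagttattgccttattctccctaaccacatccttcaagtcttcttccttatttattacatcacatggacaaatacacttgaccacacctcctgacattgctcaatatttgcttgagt
EVC2: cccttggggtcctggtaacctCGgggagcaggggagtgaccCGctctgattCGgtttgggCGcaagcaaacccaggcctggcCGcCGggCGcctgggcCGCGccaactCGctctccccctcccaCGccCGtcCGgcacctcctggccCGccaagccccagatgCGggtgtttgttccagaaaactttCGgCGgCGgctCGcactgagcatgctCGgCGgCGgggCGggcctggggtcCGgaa
DCC: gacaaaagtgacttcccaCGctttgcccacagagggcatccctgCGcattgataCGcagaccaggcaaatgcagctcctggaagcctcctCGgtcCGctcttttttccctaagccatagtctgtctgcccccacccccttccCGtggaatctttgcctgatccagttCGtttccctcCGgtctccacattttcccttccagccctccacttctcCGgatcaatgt

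TCN1 was the most strongly raised gene in DDX4-null tumors. It had 12, 26.6, 26.0 and 11.8 CPM in DDX4-null tumors, against 0.280, 0.177, 0.767 and 0.203 CPM in control tumors. DDX4-null monolayers had 381, 442, 374 and 459 CPM, against 5.04, 2.87, 4.53 and 6.92 CPM in control monolayers. The 4 groups did not overlap, in the order DDX4-null monolayers, DDX4-null tumors, control monolayers, control tumors. On the log2 scale the change was 5.57 ± 0.52 (SE, n = 4 per group) in tumors and 6.41 ± 0.17 in monolayers (adjusted p = 4.1e-16). In DDX4-null tumors the mean of 19.1 ± 8.30 CPM (SD, n = 4) was 4.61% of the mean in DDX4-null monolayers, 414 ± 42.5 CPM. Per kilobase of exon, TCN1 stood at percentile 81.5 of all genes in DDX4-null tumors, 36.6 in control tumors, 99.4 in DDX4-null monolayers and 57.9 in control monolayers. Control tumor 3, with 21 TCN1 counts against 3 or 4 in the other control tumors, moved the log2 change in tumors most of the 8 tumor libraries, to 6.42 without it.

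Other genes of vitamin B12 binding, uptake and use went both ways. In monolayers 6 of the other 15 tested were called higher and 4 lower, beside 35.0% and 32.3% of all genes. The median log2 change of the list was 0.08, against 0.02 for all genes. TCN2, the carrier that delivers vitamin B12 to cells, fell, with 2.24 ± 0.481 CPM in DDX4-null monolayers and 4.13 ± 0.622 CPM in control monolayers (log2 change -0.89 ± 0.19, adjusted p = 0.00033). MMACHC, which processes the vitamin inside the cell, fell by 1.13 on the log2 scale (SE 0.14, adjusted p = 1.2e-06). The endocytic receptor LRP2 had 11 to 20 counts per library in DDX4-null monolayers and 0 or 1 in control monolayers.

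NNMT moved in opposite directions in tumors and monolayers. It had 2.03, 7.79, 4.81 and 2.43 CPM in DDX4-null tumors, against 12.5, 19.4, 14.4 and 11.1 CPM in control tumors. In monolayers it had 89.9, 108, 77.7 and 92.6 CPM in DDX4-null cells, against 27.1, 21.2, 22.3 and 30.9 CPM in control cells. No groups overlapped, and both monolayer groups lay above both tumor groups. The log2 change was -1.72 ± 0.35 in tumors and 1.86 ± 0.12 in monolayers (adjusted p = 1.7e-10). NNMT is also expressed by fibroblasts, and their part in its tumor levels was not tested. DDX4-null tumor 1, a single library, had the most fibroblast marker RNA and the lowest NNMT level of all 16 libraries.

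Of 16 other genes of nicotinamide, NAD and methyl donor metabolism tested in monolayers, 2 were called higher and 8 lower, beside 35.0% and 32.3% of all genes. The median log2 change of the list was -0.28 in monolayers, against 0.02 for all genes. In tumors edgeR called 0 of 18, beside only 2.09% of all genes, with a median of 0.04, while 4 had an unadjusted p under 0.05 and DESeq2 called 2. NAPRT, which makes NAD from nicotinic acid, fell by 1.17 (SE 0.17, adjusted p = 5.3e-06). NAMPT, which salvages nicotinamide, the molecule that NNMT methylates, had 266 ± 31.2 CPM in DDX4-null monolayers and 439 ± 43.5 CPM in control monolayers (log2 change -0.72 ± 0.11, adjusted p = 7.2e-06). Genes of its chromosome, 7, had a median log2 change of -0.73 in monolayers, so NAMPT fell no further than they did. NMNAT2 fell by 0.83 (SE 0.12, adjusted p = 8.0e-06).

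SLC44A3 showed the same opposition at lower levels. It had 0.265, 0.487, 0.515 and 0.249 CPM in DDX4-null tumors, from 3 to 9 counts per library, against 1.19, 1.35, 1.10 and 1.47 CPM in control tumors. DDX4-null monolayers had 4.62, 4.02, 4.98 and 3.99 CPM, against 0.795, 0.861, 0.939 and 0.518 CPM in control monolayers. DDX4-null tumors were the lowest group and DDX4-null monolayers the highest, with no overlap between neighbours in the order. On the log2 scale the change was -1.69 ± 0.33 in tumors and 2.48 ± 0.24 in monolayers. The monolayer value is also a description, since SLC44A3 passed the filter there only through the DDX4-null libraries. Among 13 other genes of choline transport and phosphatidylcholine synthesis, 3 were called higher and 4 lower in monolayers. Over all genes these shares were 35.0% and 32.3%. SLC44A5, of the same transporter family, rose in both settings, by 3.37 ± 0.36 in monolayers and by 1.05 ± 0.24 in tumors (adjusted p = 0.049 in tumors). PHOSPHO1, a phosphatase of phosphocholine, rose by 4.22 ± 0.38 and the choline dehydrogenase CHDH by 2.12 ± 0.25 in monolayers.

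CLEC2B was almost off in control cells of both settings. It had 1.77, 0.974, 0.630 and 0.685 CPM in DDX4-null tumors, from 11 to 20 counts per library, against 0.280, 0.177, 0.292 and 0.152 CPM in control tumors, from 3 to 8 counts. In monolayers it had 25.9, 50.0, 36.4 and 48.2 CPM in DDX4-null cells, against 0.795, 0.646, 0.276 and 0.518 CPM in control cells. DDX4-null monolayers stood far above the rest, while DDX4-null tumors overlapped control monolayers, and control monolayers overlapped control tumors. The log2 change was 2.07 ± 0.47 in tumors and 6.18 ± 0.37 in monolayers. The monolayer value too is a description with no test, since CLEC2B passed the filter there only through the DDX4-null libraries. Its highest tumor value came from DDX4-null tumor 1, the library richest in leukocyte and fibroblast markers. Without that library the tumor change was 1.72 on the log2 scale. Of the other lectins and receptors listed for the natural killer complex, 3 passed the filter in monolayers, and KLRF1, the receptor of CLEC2B, had 0 counts in all 16 libraries. KLRG1 rose by 2.11 ± 0.19 (adjusted p = 3.7e-09) and CLEC2D by 0.52 ± 0.19 (adjusted p = 0.021) in monolayers, and CLEC2L had 0 counts in DDX4-null monolayers and 17 to 23 per library in control monolayers.

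CDH7 was lower in DDX4-null libraries, by more in tumors than in monolayers. It had 0.0885, 0.108, 0.172 and 0.249 CPM in DDX4-null tumors, from 1 to 4 counts per library, against 0.911, 1.24, 0.913 and 1.52 CPM in control tumors. DDX4-null monolayers had 5.48, 4.61, 5.28 and 6.35 CPM, against 7.69, 6.75, 6.91 and 8.35 CPM in control monolayers. The groups did not overlap, and both tumor groups were below both monolayer groups. On the log2 scale the change was -2.81 ± 0.46 in tumors and -0.44 ± 0.14 in monolayers (adjusted p = 0.01). Genes of its chromosome, 18, had a median log2 change of -0.38 in monolayers and 0.01 in tumors. After chromosome medians were subtracted, the monolayer change of CDH7 was -0.07 and no longer called (adjusted p = 0.7). Of 15 other cadherins and catenins tested, 6 were called higher and 4 lower in monolayers, beside 35.0% and 32.3% of all genes. CDH12 rose by 4.08 ± 0.34, and CDH13 had 0 counts in control monolayers and 16 to 28 per library in DDX4-null monolayers. The neural cadherin CDH2 fell by 0.82 (SE 0.10, adjusted p = 4.2e-07), and also lies on chromosome 18, with its median of -0.38.

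DCC, also on chromosome 18, was a gene of the tumors. It had 10.4, 8.65, 7.79 and 5.55 CPM in DDX4-null tumors, against 3.08, 2.00, 2.45 and 2.18 CPM in control tumors. In monolayers it had 3, 2, 7 and 5 counts in DDX4-null cells, against 2, 0, 2 and 0 counts in control cells. Tumor groups did not overlap each other or the monolayers, and the monolayer groups overlapped. The log2 change in tumors was 1.74 ± 0.22. In a fit of the monolayer libraries alone with no filter on low counts, DCC had a log2 change of 1.73 (adjusted p = 0.061). No change was detectable in that fit at this depth. The model of all 16 libraries also held DCC, and is read here for the comparisons of settings. Averaged over genotypes, tumors exceeded monolayers by 5.09 ± 0.44 on the log2 scale. This is a description with no test, since DCC passed the filter on low counts only through the tumor libraries. Fibroblast marker RNA was also higher in tumors than in monolayers, where the 12 markers summed to 191 to 239 CPM in DDX4-null and 290 to 321 CPM in control cells. Its part in the DCC level was not tested.

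Among the netrin partners of DCC, of 18 others tested in monolayers 12 were called higher and 3 lower. Over all genes these shares were 35.0% and 32.3%. The median log2 change of the list was 1.57, against 0.02 for all genes. NEO1, the paralog of DCC, had 99.7 ± 9.81 CPM in DDX4-null monolayers and 2.25 ± 0.777 CPM in control monolayers (log2 change 5.47 ± 0.18, adjusted p = 1.6e-15). In tumors it had 7.58 ± 2.37 CPM in DDX4-null and 4.36 ± 0.353 CPM in control libraries, with a log2 change of 0.78 ± 0.22 that was not called (adjusted p = 0.088). The ligand NTN1 had 17.6 ± 2.63 CPM in DDX4-null monolayers and 0.161 ± 0.116 CPM in control monolayers (log2 change 6.71 ± 0.47). RGMA, a ligand of NEO1, had 118 to 141 counts per library in DDX4-null monolayers and 0 or 1 in control monolayers.

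SHISA2 was the one gene of the 10 that was higher in DDX4-null tumors and lower in DDX4-null monolayers. It had 15.9, 5.84, 7.16 and 5.55 CPM in DDX4-null tumors, against 1.61, 0.942, 1.06 and 2.38 CPM in control tumors. DDX4-null monolayers had 2.85, 3.37, 2.97 and 3.11 CPM, against 7.02, 8.40, 9.12 and 8.99 CPM in control monolayers. DDX4-null tumors overlapped control monolayers at the top of the order, and the other groups stood apart. The log2 change was 2.51 ± 0.39 in tumors and -1.45 ± 0.15 in monolayers (adjusted p = 5.7e-08). DDX4-null tumor 1 held the highest value, and without it the tumor change was 2.06. Of 14 others of the SHISA family and of the frizzled and FGF receptors, 8 were called higher and 4 lower in monolayers. Over all genes these shares were 35.0% and 32.3%. FZD4 had 77.8 ± 7.21 CPM in DDX4-null monolayers and 333 ± 33.0 CPM in control monolayers (log2 change -2.10 ± 0.10, adjusted p = 2.1e-12). FGFR4 rose by 1.55 ± 0.11 (adjusted p = 1.8e-10), and FGFR2 had 43 to 69 counts per library in DDX4-null monolayers and 0 or 1 in control monolayers.

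EVC2 was read at 0 in DDX4-null monolayers. It had 0.265, 0.108, 0 and 0.125 CPM in DDX4-null tumors, from 3, 2, 0 and 2 counts, against 0.981, 1.06, 0.986 and 0.811 CPM in control tumors. In monolayers it had 0 counts in each DDX4-null library, against 3.71, 3.37, 3.32 and 4.59 CPM in control cells. Control monolayers were highest, control tumors next, and the DDX4-null groups overlapped near 0. The log2 change in tumors was -3.02 ± 0.61. In monolayers EVC2 was at least 91.9-fold lower in DDX4-null cells, set against a floor of 3 counts over the group. This fold is a description with no test, since EVC2 passed the filter on low counts only through the control monolayers. Of 18 other genes of the EVC complex and the Hedgehog pathway tested in monolayers, 10 were called higher and 3 lower. Over all genes these shares were 35.0% and 32.3%. The median log2 change of the list was 0.57. HHIP, an inhibitor that binds Hedgehog ligands, rose by 2.37 ± 0.12 (adjusted p = 1.7e-12) and HHAT, which adds palmitate to them, by 2.45 ± 0.22 (adjusted p = 2.9e-09). IQCE, which anchors the EVC complex, fell by 1.2 (SE 0.11, adjusted p = 2.3e-08), and lies on chromosome 7, with its median of -0.73.

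ZFPM2 rose in monolayers and was higher in every DDX4-null tumor. It had 2.65, 4.71, 3.72 and 4.05 CPM in DDX4-null tumors, against 0.981, 0.765, 0.438 and 0.659 CPM in control tumors. In monolayers it had 15.4, 17.0, 20.3 and 15.8 CPM in DDX4-null cells, against 1.33, 1.44, 1.33 and 2.13 CPM in control cells. The groups did not overlap and had the same order as for TCN1. On the log2 scale the change was 2.46 ± 0.29 in tumors and 3.46 ± 0.19 in monolayers (adjusted p = 1.9e-12). Of 10 other FOG and GATA factors and partners tested in monolayers, 3 were called higher and 2 lower. Over all genes these shares were 35.0% and 32.3%. GATA3 rose by 2.72 ± 0.23 (adjusted p = 8.7e-10) and the nuclear receptor NR2F2, another partner of ZFPM2, by 0.91 ± 0.11 (adjusted p = 5.6e-07). GATA5 had 20 to 28 counts per library in DDX4-null monolayers and 0 in all libraries of the other 3 groups.

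SYT14 differed most between libraries of one group. It had 0.0885, 1.30, 1.72 and 0.249 CPM in DDX4-null tumors, from 1, 24, 30 and 4 counts, against 4.63, 5.53, 4.86 and 6.89 CPM in control tumors. DDX4-null monolayers had 2.79, 2.90, 3.52 and 3.90 CPM, against 2.05, 2.80, 2.32 and 1.88 CPM in control monolayers. DDX4-null tumors 1 and 4 were far below tumors 2 and 3, yet all 4 were below every other library, and the monolayer groups overlapped. The log2 change was -2.61 ± 0.50 in tumors and 0.54 ± 0.19 in monolayers (adjusted p = 0.017). The monolayer call was lost without control monolayer 1 or 4 or DDX4-null monolayer 4, where the largest adjusted p was 0.068, and in a model of all 16 libraries (adjusted p = 0.18). Of 15 other synaptotagmins and related genes tested in monolayers, 7 were called higher and 6 lower. Over all genes these shares were 35.0% and 32.3%. SYT1, a calcium sensor of vesicle release, fell by 1.48 (SE 0.11, adjusted p = 6.1e-10), SYT17 rose by 1.57 ± 0.13 (adjusted p = 1.9e-09) and SYTL2 fell by 1.18 (SE 0.09, adjusted p = 2.1e-09).

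Over all 10 families and pathways, 129 other genes were tested in tumors, of which 2 were called higher and 1 lower. That share of 2.33% stands beside 2.09% of all genes, and DESeq2 called 8. Named after their values were seen, these were SLC44A5 and NTN4, called higher, and CDH6, called lower. In monolayers 59 were called higher and 39 lower of 137, a share of 71.5% beside 67.3% of all genes.

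The size of the tumor change set beside that of the monolayer change differed from gene to gene. The difference, tumor change minus monolayer change in a model of all 16 libraries, contains the change that picked the genes and is given with its SE and no test. Over all genes this difference was called for 52.8%, 26.0% higher and 26.8% lower. It was 3.95 ± 0.43 for SHISA2. It was -4.16 ± 0.39 for SLC44A3, -3.55 ± 0.35 for NNMT and -3.13 ± 0.53 for SYT14, whose changes had opposite signs. For CLEC2B it was -4.15 ± 0.62 and for ZFPM2 -0.97 ± 0.34, both raised more in monolayers. For CDH7 it was -2.35 ± 0.44, the larger fall being in tumors. For TCN1 it was -0.85 ± 0.59, and 0.02 without control tumor 3. The SE for DCC was 0.88 because of its few monolayer counts, so its estimate of -0.01 does not show equal changes. For EVC2 the 0 counts in DDX4-null monolayers leave no measured value.

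**Figure D2:**
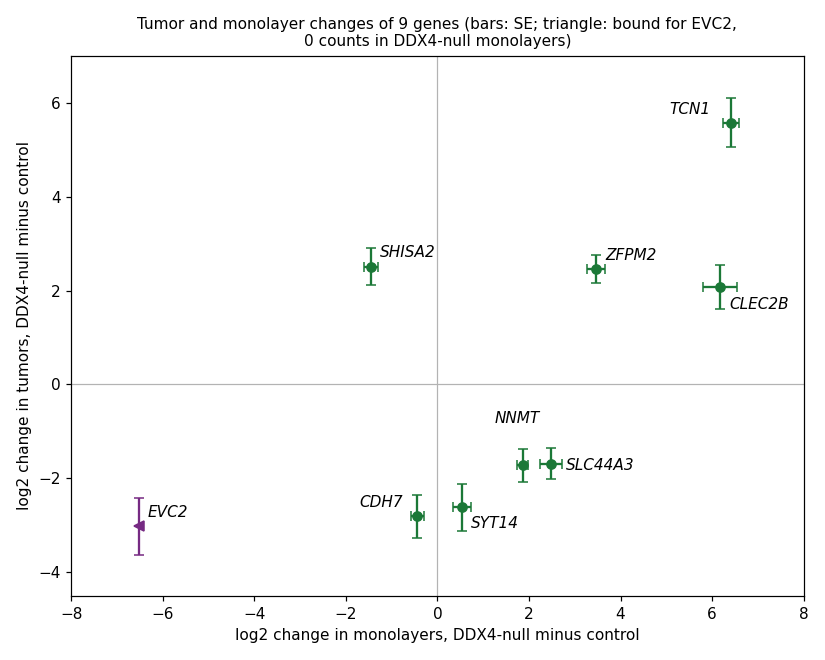
Log2 change between DDX4-null and control libraries in monolayers (horizontal axis) and tumors (vertical axis) for 9 genes, with SE bars; the triangle marks a bound for EVC2, at least 91.9-fold lower in monolayers, and DCC is left out because it did not pass the monolayer filter. SHISA2 lies at -1.45 and 2.51, and NNMT, SLC44A3 and SYT14 lie right of 0 and below 0.

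The tumor changes kept their sign in every fit that left out 1 library, and the number of such fits that called them is given as a description, since the same libraries chose the genes. TCN1, ZFPM2, CDH7 and DCC were called in 8 of 8 such fits. Their log2 changes ran from 5.36 to 6.42, from 2.25 to 2.64, from -3.11 to -2.64 and from 1.61 to 1.89. The upper end for TCN1 came without control tumor 3. SHISA2 (2.06 to 2.83) and EVC2 (-3.52 to -2.58) were called in 6 of 8, and both lost the call without control tumor 2 or 3. SYT14 (-3.17 to -2.30) was called in 4 of 8, losing it without control tumor 1, 2 or 3 or DDX4-null tumor 2. CLEC2B (1.72 to 2.27) was called in 3 of 8, losing it without any of the 4 control tumors or DDX4-null tumor 2. NNMT (-2.17 to -1.50) was also called in 3 of 8, losing it without control tumor 1, 2 or 3 or DDX4-null tumor 3 or 4. SLC44A3 (-1.86 to -1.52) was called in 3 of 8, losing it without control tumor 1, 2 or 3 or DDX4-null tumor 2 or 4.

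The number of calls over all genes also moved between these fits. Without control tumor 3, 4 of the 10 genes and 26 of all genes (0.199%) were called. Without control tumor 2 these were 4 and 47 (0.361%). Without control tumor 4, where CLEC2B was not called (adjusted p = 0.074), 9 of the 10 and 274 of all genes (2.1%) were called. Without DDX4-null tumor 1, the library with the high fibroblast marker RNA, all 10 genes and 289 of all genes (2.21%) were called.

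**Figure D3:**
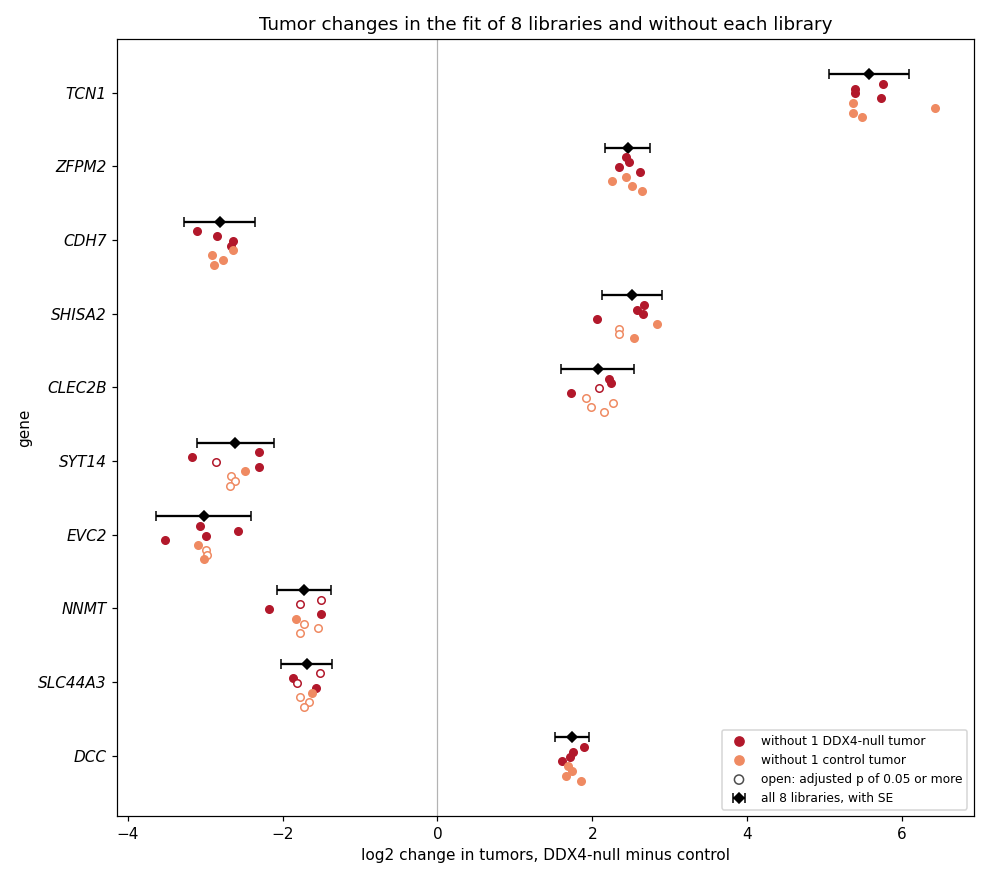
Log2 change between DDX4-null and control tumors (horizontal axis) for each gene, with all 8 libraries (diamond, SE bar) and without each DDX4-null or control tumor (circles; open where the adjusted p was 0.05 or more). The changes stay on one side of 0, and TCN1 reaches 6.42 without control tumor 3.

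Averaged over genotypes, a contrast that does not use the genotype difference in tumors, tumors and monolayers differed in 73.2% of 13603 genes tested, 37.7% higher and 35.5% lower in tumors. Of the 10 genes 7 were called lower in tumors. DCC was higher there, which is a description only, since it passed the filter on low counts only through the tumor libraries. The lower ones were TCN1 (log2 difference -4.0 ± 0.30, adjusted p = 9.5e-12), CDH7 (-3.87 ± 0.22), CLEC2B (-3.30 ± 0.31), NNMT (-2.60 ± 0.18), ZFPM2 (-1.67 ± 0.17), SLC44A3 (-1.38 ± 0.19) and SHISA2 (-0.52 ± 0.21, adjusted p = 0.036). The SHISA2 call was lost without any 1 of 9 libraries and with library totals, with a largest adjusted p of 0.089. SYT14 was not called (-0.29 ± 0.26, adjusted p = 0.32). For 3 genes read in all groups this average joins opposite directions. The mean CPM of SHISA2 in tumors was 2.8 times that in monolayers for DDX4-null cells and 0.179 times for control cells. For SLC44A3 the ratio was 0.0862 in DDX4-null and 1.64 in control cells, and for SYT14 it was 0.256 in DDX4-null and 2.42 in control cells. EVC2 was not called either (adjusted p = 0.076), except without DDX4-null tumor 3 (adjusted p = 0.041). Its log2 difference of 1.04 rests on the 0 counts in DDX4-null monolayers, beside 7 counts over DDX4-null tumors. In control cells the mean CPM of EVC2 in tumors was 0.256 times that in monolayers.

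The genes lie on 7 chromosomes, with NNMT and TCN1 both on 11, SLC44A3 and SYT14 on 1, and CDH7 and DCC on 18. The nearest measured genes on each side, by GENCODE v29 order on GRCh38, were then read. The neighbours tested in tumors had log2 changes between -0.46 (EVC) and 0.57 (ATP8A2). Of these 12 edgeR called 0, beside only 2.09% of all genes, with 3 at an unadjusted p under 0.05 and 1 called by DESeq2. EVC lies head to head with EVC2, in the opposite strand direction. EVC had 29.3 ± 8.52 CPM in DDX4-null tumors and 40.6 ± 2.63 CPM in control tumors (adjusted p = 0.16). In monolayers it had 31.2 ± 4.01 CPM in DDX4-null and 28.5 ± 4.66 CPM in control cells (adjusted p = 0.35), where EVC2 was at 0 in the DDX4-null libraries. The next gene beyond EVC, named after its values were seen, is CRMP1, a protein of the response to semaphorins. It had 6 to 14 counts per library in DDX4-null tumors and 1 to 3 in control tumors, and 686 to 818 in DDX4-null monolayers and 0 in control monolayers.

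In monolayers some neighbours moved, where 67.3% of all genes tested were called. LRP12 and OXR1, beside ZFPM2, were called with small changes of -0.23 ± 0.10 and 0.28 ± 0.12. RNF6, UTP25, C11orf71 and EVC were tested and not called. SERTAD4, beside SYT14, rose by 6.14 ± 0.62, with 7.26 ± 1.05 CPM in DDX4-null and 0.0953 ± 0.0828 CPM in control cells. F3, tissue factor, beside SLC44A3, rose by 2.52 ± 0.18 (adjusted p = 1.6e-10), and SLC44A3 by 2.48 ± 0.24. CNN3, on the other side of SLC44A3, rose by 0.79 ± 0.10 (adjusted p = 1.1e-06). On chromosome 18, SERPINB8 beside CDH7 fell by 0.30 (SE 0.11, adjusted p = 0.017), and MEX3C and MBD2 on both sides of DCC fell by 0.61 (SE 0.13) and 0.25 (SE 0.10), where the median of the chromosome was -0.38. The genes beside TCN1 and CLEC2B had at most 6 counts over any group.

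**Figure D4:**
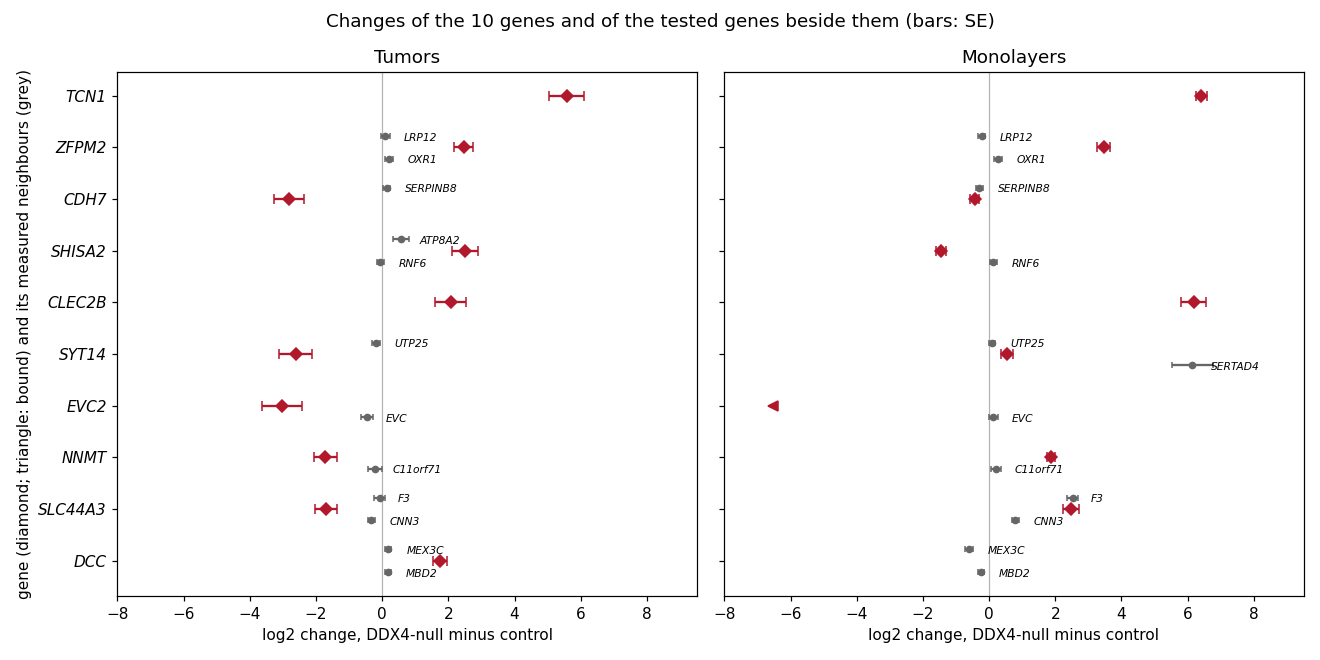
Log2 change between DDX4-null and control libraries (horizontal axis) in tumors and in monolayers for each gene (red; triangle for the EVC2 bound) and for the tested genes next to it (grey), with SE bars. In tumors the neighbours lie between -0.46 and 0.57, and in monolayers SERTAD4 and F3 stand away from 0.

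Profiles over the 16 libraries were compared by the root mean square (RMS) difference of log2(CPM + 0.5) after each gene was centred on its own mean, among 13603 genes. A smaller value means a nearer profile, and all libraries share the 4-group structure, so likeness mostly reads group levels. The nearest to SLC44A3 were FAM184A (RMS difference 0.219) and AKAP2 (0.252), against an RMS of 0.939 of SLC44A3 around its own mean. FAM184A had 0.321 ± 0.166 CPM in DDX4-null tumors, 1.11 ± 0.349 in control tumors, 4.20 ± 0.404 in DDX4-null monolayers and 0.532 ± 0.0826 in control monolayers. The nearest to EVC2 were TAF7 (0.246), a subunit of the general transcription factor TFIID, and ASB15 (0.458). The 0.5 added before the log narrows the fall of EVC2, read at 0 in DDX4-null monolayers, so this likeness does not show falls of equal size. TAF7 had 11.7 ± 1.43 CPM in DDX4-null tumors, 19.8 ± 2.21 in control tumors, 7.21 ± 0.709 in DDX4-null monolayers and 57.2 ± 8.92 in control monolayers.

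CLEC2B was nearest to the junction protein JAM3 (0.373) and to ABTB3 (0.378), and JAM3 was also the second nearest to TCN1 (1.37), after the neuroligin NLGN4X (1.35). TCN1 itself varied by an RMS of 3.29 around its mean. DCC was nearest to LRATD1 (0.378) and OLFML2B (0.428), CDH7 to OTULINL (0.435) and HTR7 (0.471), and ZFPM2 to SMOC1 (0.440) and LSAMP (0.449). NNMT was nearest to ARAP2 (0.486) and to the transglutaminase TGM2 (0.528), SYT14 to WASF3 (0.521) and NLRC5 (0.618), and SHISA2 to the stress gene DDIT4 (0.543) and SNTB1 (0.568). Around their own means SYT14 varied by an RMS of 0.967 and SHISA2 by 0.981, so these differences are large beside the genes' own spread. DDIT4 had 81.4 ± 11.4 CPM in DDX4-null tumors, 41.0 ± 12.9 in control tumors, 46.2 ± 5.18 in DDX4-null monolayers and 122 ± 4.44 in control monolayers, the same order of genotypes in each setting as SHISA2. TGM2 had 25.7 ± 4.60 CPM in DDX4-null tumors, 57.6 ± 3.22 in control tumors, 483 ± 34.6 in DDX4-null monolayers and 203 ± 13.6 in control monolayers, the same order of the 4 groups as for NNMT.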

How the data were processed

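The deposited table holds whole-number read counts, which the authors left unnormalized, for 20356 Ensembl genes and 16 libraries. The labels' protocols name DNase treatment of total RNA and the Illumina TruSeq Stranded mRNA kit. Trimmomatic 0.39, STAR 2.7.10a, featureCounts 2.0.3 and GRCh37 are named in the submitters' processing notes. No source used here states the annotation, the strand setting or what was done with reads of the host, so host reads may be counted on human genes, and antisense reads cannot be set apart. Symbols came from a table of gene names (19446) and from GENCODE v29 (65 more).

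Changes came from edgeR 4.0.16 (quasi-likelihood, TMM, filterByExpr, Benjamini-Hochberg over all genes) in R 4.3.3, with 8 libraries for each genotype comparison and a model of 4 groups for the difference and for the averaged comparison of settings. SE is the quasi-likelihood standard error of the log2 change. CPM were scaled by TMM over all 16 libraries. A count of 0 allows up to 3 counts, 0.11 to 0.265 CPM per library, for counting error only. Lengths are GENCODE v29 exon unions. The genes, lists and tests were chosen with earlier results of these data known. Named beside the 10 genes were their measured neighbours, the 2 nearest profiles, and the 3 list genes with the smallest monolayer p. Alternatives were DESeq2 1.42.0, other scalings and filters, a replicate block, a model of 16 libraries, subtracted chromosome medians, and leaving out each library. The fit was tested on simulated counts. Every pair of replicates differed by more than counting noise.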

Additional observations from a re-analysis of the deposited data

Results flagged for a closer look

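In groups of 4 libraries, 2 of the 39 sets of CPM values with any spread had 1 library far from the others by Dixon's criterion, which chance gives for about 1 in 20 groups. The highest DDX4-null tumor had 15.9 CPM of SHISA2, against 5.55 to 7.16 CPM in the other 3, and was tumor 1, whose fibroblast marker RNA was also highest. The highest control monolayer had 2.13 CPM of ZFPM2, against 1.33 to 1.44 CPM in the other 3.

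For 3 genes every DDX4-null library lay on one side of the control libraries in tumors and on the other side in monolayers. The tumor change minus the monolayer change was 3.95 on the log2 scale for SHISA2, -3.55 for NNMT and -4.16 for SLC44A3. These differences were not tested, because the tumor change picked the genes.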

How the results depend on the processing

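The number of genes called in tumors, 270 at first, was 880 with DESeq2, 808 in a model of all 16 libraries and 425 with the replicate block. Without 1 library it ran from 26 to 289, and the cause was not tested. Counts for monolayers, for the difference and for the averaged comparison stayed within 1.5 times under every alternative run, from 8141 to 9680, from 6572 to 7330 and from 9671 to 10703. With library totals the median of all genes shifted to -0.16 for the difference and 0.12 for the averaged comparison, and calls of the difference were split into 2721 higher and 4404 lower, against 3532 and 3649. No change of the 10 genes between genotypes reversed in sign. In tumors CDH7, CLEC2B and EVC2 were not tested under a filter of at least 1 CPM in 4 libraries, and no other alternative run, save leaving out a library, ended a call of the 10 genes, while in monolayers 2 did, subtracted chromosome medians for CDH7 and the model of 16 libraries for SYT14. Whether replicate numbers pair the libraries cannot be told from 4 pairs per comparison. Deviations of same-numbered libraries correlated between -0.23 and 0.39 in monolayers and between -0.058 and 0.2 in tumors. In these, 3 and 2 of 8 libraries correlated best with their own number. Between tumors and monolayers, 4 of 8 control libraries (correlations -0.048 to 0.12) and 5 of 8 DDX4-null libraries (-0.05 to 0.16) did. Depth limits CDH7, SLC44A3 and EVC2 in DDX4-null tumors, CLEC2B in control tumors and DCC in monolayers, with at most 9 counts per library.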
